A study of Mus musculus and Homo sapiens with 56 samples.

Results

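The m6A peaks of D395A mouse embryonic stem cells are described here against the RNA of the same cells. All 38823 peaks of the deposited D395A list were taken, each was placed by its summit on the exons and gene bodies of the RNA-seq count table (mm10), and each gene was given its counts in the 2 D395A RNA libraries. The series holds 56 samples on m6A at chromatin and the histone mark H3K9me2 in mouse and human cells, and 4 of them, all from D395A cells, enter here. The cells are E14TG2a, an established mouse embryonic stem cell line, carrying D395A, a substitution in the catalytic centre of METTL3. They were untreated and grown on gelatin with LIF, the MEK inhibitor PD0325901 and the GSK3β inhibitor CHIR99021. The peak list stands for 1 library immunoprecipitated (IP) with an anti-m6A antibody and 1 input library, both of fragmented RNA from chromatin. The RNA-seq libraries were made from total RNA after removal of rRNA. The labels do not say whether the 2 RNA libraries came from separate cultures or how many clones the line stands for.

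METTL3 writes most m6A in messenger RNA, as the catalytic subunit of a nuclear complex with METTL14, WTAP and further subunits. Other enzymes methylate adenosine at N6 without it: METTL16 acts on the RNA of the S-adenosylmethionine synthetase gene Mat2a and on U6 small nuclear RNA, METTL5 and ZCCHC4 act on ribosomal RNA, and PCIF1 acts on the first transcribed adenosine next to the cap (m6Am), which anti-m6A antibodies also bind. An antibody peak is enrichment over input and does not by itself show a methylated base. The question followed here is which RNAs and which parts of them the antibody still enriched in cells whose METTL3 carries the substitution.

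The ends of RNAs at their annotated starts were one place where summits gathered. The sequences of 7 such starts are therefore shown, taken from the 8 with the highest −log10 p of a summit in an exon of the gene within the first 300 bases downstream. Each runs 5′ to 3′ on the gene's strand, from 10 bases before the annotated start in RefSeq (GRCm38.p6, the assembly of mm10), with the start base in capitals, the base that would carry m6Am if it is an adenosine.
Nufip2: agacgcgctcAgatataccgagcgagcgcg
Slc3a2: gggtcacttcCccgccgccacacccgccca
Fth1: ctgattggccAgcgctcgcctgacgcagga
Hspa5: gacggcgcgcTcgatactggccgagacaac
Ankrd17: cggcggcggcAgtagaggtgaccgaggcgg
Actn1: cactgagagcAgtgtgcgtggagattaggt
Ctnnd1: tagggctgccAgatcagtttgtcaccaccc
The start base is A in Nufip2, Fth1, Ankrd17, Actn1 and Ctnnd1, and it is C in Slc3a2 and T in Hspa5. Since 1 of the 8 is not reported here, these bases give no share over the 8. These windows lie at chr11:77686129-77686158 (plus strand) for Nufip2, chr19:8713878-8713907 (minus) for Slc3a2 and chr19:9982636-9982665 (plus) for Fth1. The others lie at chr2:34772080-34772109 (plus) for Hspa5, chr5:90366166-90366195 (minus) for Ankrd17, chr12:80260344-80260373 (minus) for Actn1 and chr2:84650721-84650750 (minus) for Ctnnd1. Their summits lay 126 to 267 bases downstream of the start, and 6 of the 7 peaks also reached 1 to 141 bases upstream of it, the exception being Ankrd17.

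Most entries of the list were weak. The median fold of IP over input at the summit was 2.66 (quartiles 2.27 and 3.02), 732 peaks reached 5-fold and 42 reached 10-fold. A false discovery rate (q) of at most 0.05 was reached by 5275 peaks, 13.6% of the list (95% Wilson interval 13.3 to 13.9%; such intervals cover counting error only, since the list has no replicate), while 15811 peaks (40.7%) had a q of 1. A single pair of values, a fold of 2.93 with a −log10 p of 3.26, was shared by 2271 peaks (5.85%). The smallest width, 298 bases, was held by 16197 peaks (41.7%) but by only 306 of those with q at most 0.05. Results below are given for the whole list and for these 5275 peaks.

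The RNA libraries held 12743677 and 18151353 counts over genes (replicates 1 and 2 throughout). RNA level is given as CPM, a gene's counts scaled to a common library total, replicate 1 first. Over the 15899 genes above 1 CPM the libraries correlated at 0.986 (Pearson r of log2 of CPM plus 0.1, across genes, which are not independent), and 99.5% of the 10198 genes above 10 CPM agreed within 1.5-fold. The 8 embryonic stem cell markers summed to 1954 and 1899 CPM and the 5 fibroblast feeder markers to 3.30 and 3.03 CPM. Short RNAs stood higher in replicate 1: the median ratio of replicate 1 to replicate 2 was 1.44 for structural small RNAs, 1.34 for histone genes and 1.23 for ribosomal protein genes, against 0.982 over genes above 10 CPM. Opposite-strand neighbours overlap the exons of 32.0% of genes above 1 CPM. Whether reads were assigned by strand is not stated in the labels, and the peaks carry no strand, so signal of such pairs cannot be told apart.

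Summits lay mostly in introns, but their density was highest in first exons. Introns held 67.3% of the 38823 summits (66.9 to 67.8%), internal exons 9.41%, last exons 4.81%, first exons 2.35%, genes with a sole exon 1.55%, the 5 kb on either side of genes 5.59% and other sequence 8.97%. Exons together held 18.1% (17.7 to 18.5%) of all summits and 32.6% (31.4 to 33.9%) of those with q at most 0.05. Introns held 56.0% of the latter, internal exons 17.4%, last exons 6.20% and first exons 5.46%. A q of at most 0.05 was reached by 31.5% of first-exon peaks, 25.2% of internal-exon peaks, 17.5% of last-exon peaks and 11.3% of intronic peaks. Exonic calls were thus fewer than intronic ones and more often past the q threshold, while their median fold at that threshold was lower, 3.41 against 3.98.

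Density was taken over the 9448 genes above 10 CPM with at least 3 exons, each kind of sequence being counted in megabases (Mb). First exons held 191 summits per Mb, internal exons 108, last exons 83.2 and introns 50.1. The first exon thus had 3.81 times the intronic density (3.54 to 4.09, counting error only). Among peaks with q at most 0.05 the densities were 67.5, 28.8, 15.4 and 5.85 per Mb, and the first exon had 11.6 times the intronic density. The order of the sequence kinds was the same in both lists. Within internal exons, the density at q at most 0.05 was 19.5 per Mb in exons of up to 100 bases, 24.4 in longer ones of up to 200, 44.7 in those of up to 400, 39.4 in those of up to 1000 and 23.7 beyond that. RNA from introns and exons is not equally abundant, and its part in these densities was not tested.

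**Figure D1:**
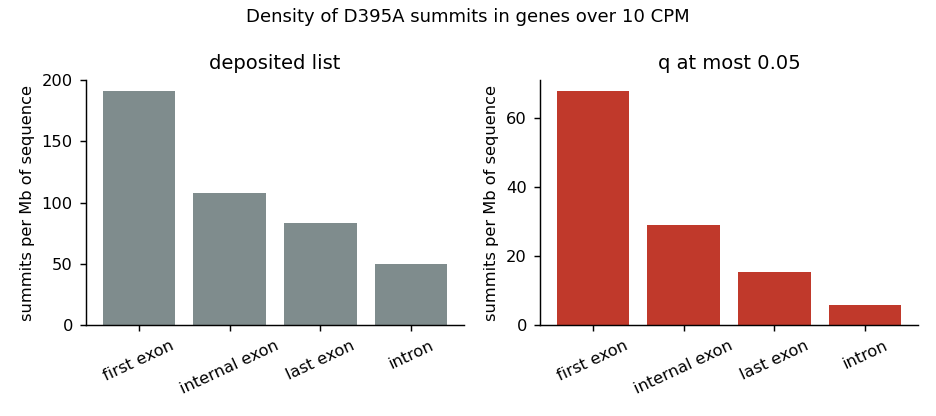
Density of D395A peak summits (summits per Mb of each kind of sequence) in the 9448 genes above 10 CPM with at least 3 exons, for the deposited list (left) and for peaks with q at most 0.05 (right; own scale). In both panels the bars fall from first exon to internal exon, last exon and intron, from 191 to 50.1 and from 67.5 to 5.85 per Mb.

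Along the merged exons of these genes, the 5′ end was filled most. The first 10% of the exonic length held 20.7% of the 5663 exonic summits and the last 10% held 4.45%, and at q at most 0.05 these were 27.7% and 2.96% of 1453. Within last exons, the first 10% of the exon held 24.2% of 1530 summits and 33.2% of the 283 with q at most 0.05, and the last 10% held 3.92% and 1.41%. The part that fragment length and read coverage at RNA ends have in this was not tested. Intronic summits were spread more evenly, with 11.6% of 22879 in the first 10% of the gene and 6.37% in the last.

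Around annotated starts the summits rose sharply on the transcribed side. There were 781 summits in the first 300 bases downstream of the nearest annotated start, against 202 in the 300 bases upstream and 436 in the 300 bases that follow. The fullest 100 bases were 100 to 199 bases downstream, with 353 summits, of which 130 had q at most 0.05. Farther in, over the 1000 bases from position 1000 on, there were 817 summits, or 81.7 per 100 bases, against 260.3 in the first 300. Peaks in the first 300 bases had a median fold of 2.93, and 32.7% of them had q at most 0.05, against 18.8% of those just upstream.

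**Figure D2:**
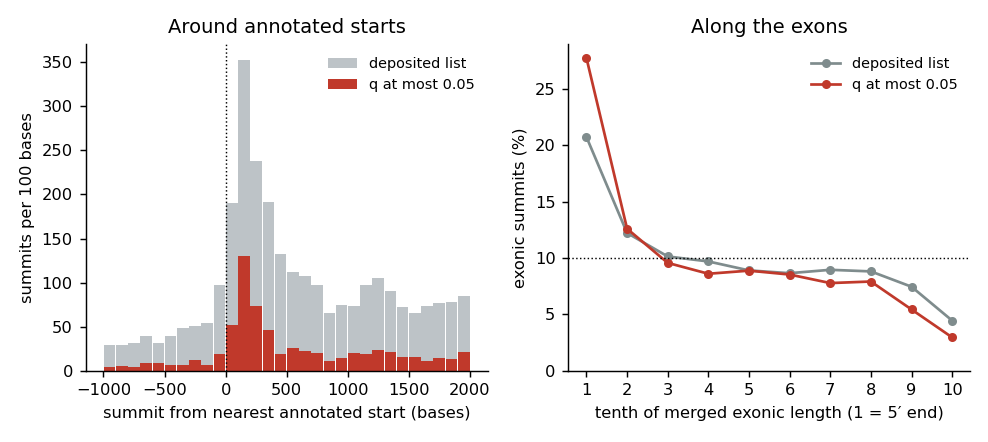
Left: number of summits in each 100 bases around the nearest annotated start (position in bases, positive downstream; grey, deposited list; red, q at most 0.05). Right: percent of exonic summits in each 10% of the merged exonic length of genes above 10 CPM, where an even spread would give 10% (dotted line). The tallest bar, 353 summits, stands at 100 to 199 bases, and the first 10% of the length holds 20.7% of exonic summits or 27.7% at q at most 0.05.

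The share of starts with an adenosine, which m6Am needs, was compared with and without regard to these summits. It was 28.7% of the 781 starts with such a summit (25.6 to 32.0%) and 34.4% of all 32851 starts in the table (33.8 to 34.9%), so it was lower beneath summits beyond the counting intervals; this comparison does not match RNA level. At genes of 10 to 100 CPM the shares were 28.4% with a summit (24.0 to 33.3%, n = 359), 24.4% with one of q at most 0.05 (16.7 to 34.2%, n = 90) and 28.3% overall (27.3 to 29.3%). At genes above 100 CPM they were 28.6% (23.6 to 34.2%, n = 276) and 25.6% (24.0 to 27.2%), and 31.7% (24.1 to 40.4%, n = 123) with a summit of q at most 0.05. Within each of these RNA levels the intervals overlap, and a difference was not detectable with these numbers. The annotated start of a gene may differ from the one used in these cells.

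Of the starts shown above, Nufip2, which encodes a nuclear protein that binds FMRP, had a peak of 6.77-fold (−log10 p 42.1) with RNA at 290 and 307 CPM. Fth1, the ferritin heavy chain gene, had 5.29-fold (21.7) at 425 and 380 CPM. Slc3a2, the heavy chain of amino acid transporters, had 4.30-fold (29.4) at 263 and 290 CPM. Its summit was placed in an internal exon of the merged gene model, not in the first exon. Hspa5, the chaperone BiP of the endoplasmic reticulum, had 4.28-fold (20.3), Ankrd17 4.84-fold (19.3) and Actn1, an alpha-actinin, 4.76-fold (18). Ctnnd1, the cadherin-binding catenin p120, had 8.33-fold (17) at 46.3 and 51.6 CPM, at a summit that the model Gm28635, without counts, also covers. The RNA levels of the 7 thus ranged widely, and so did their folds, in no common order. Other strong first-exon peaks lay in Pabpc1, the poly(A)-binding protein gene (4.89-fold, −log10 p 23.6; 1619 and 1579 CPM), and in Trap1a (6.13-fold, 24.4), whose summit Platr21 shares.

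The strongest peak of the list by p lay on Mat2a, the METTL16 target. It had a −log10 p of 257.8 and a fold of 24.2, the seventh highest fold. At 7384 bases it was also the widest of the 38823 peaks, at chr6:72430409-72437792. It covered 81.9% of the exonic bases of Mat2a (minus strand, 72432799 to 72439558), and its summit fell in the last exon, 323 bases from the end of the gene. It ran on for 2390 bases beyond that end, to the last 304 bases of the neighbouring gene Ggcx on the plus strand. A second Mat2a peak over the first exon had 3.53-fold enrichment (−log10 p 12.9), at a place that the opposite-strand gene Particl (8.71 and 6.28 CPM) also covers. Mat2a RNA stood at 366.5 and 374.5 CPM, so the level of this RNA was close in both libraries.

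Genes of the methyltransferases themselves held mostly weak peaks. Mettl3 stood at 31.5 and 35.1 CPM, where a change of 1 codon cannot be seen, and had 1 internal-exon peak of 1.99-fold with a q of 1. Of the 8 subunits of its complex, 7 held a summit (87.5%, beside 77.3% of all genes at the same RNA levels) and 1 held one with q at most 0.05 (12.5% beside 36.4%). That gene was Zc3h13, the zinc finger subunit (internal exon, 3.13-fold, −log10 p 19; 101.4 and 107.9 CPM). Mettl14, the partner that binds RNA, had an intronic peak of 2.84-fold (2.94; 35.1 and 39.8 CPM), Wtap, the adaptor, 2.75-fold (3.53; 203 and 194 CPM) and Virma, the scaffold, 3.22-fold (3.57; 218 and 230 CPM). Rbm15, an RNA-binding subunit, had 2.88-fold in its last exon (4.1; 196 and 196 CPM), and Cbll1 2.69-fold in its last exon (4.38; 81.0 and 94.2 CPM). These 5 genes had no peak with q at most 0.05. Rbm15b, a paralogue of Rbm15, had no summit at all (148 and 154 CPM). Of 6 other N6-adenosine methyltransferase genes and partners, 5 held a summit (83.3% beside 69.3%) and 2 one with q at most 0.05 (33.3% beside 22.7%). Mettl16 had 3 peaks, the best in an internal exon at 3.59-fold (−log10 p 5.17), with RNA at 78.3 and 86.9 CPM. Mettl5 had a first-exon peak of 5.81-fold (9.43) at 29.2 and 27.4 CPM, while the best peaks of Zcchc4 (3.01-fold; 33.0 and 33.6 CPM), Pcif1 (2.1-fold; 104 and 100.3 CPM) and Mettl4 (2.39-fold; 35.5 and 39.6 CPM) did not reach q at most 0.05. Trmt112, the partner of METTL5, had none (50.8 and 43.4 CPM). Of 12 genes of m6A erasers and readers, 11 held a summit (91.7% beside 82.4%) and 9 one with q at most 0.05 (75% beside 45.1%). The strongest was intronic, in Hnrnpa2b1 (4.01-fold, −log10 p 26.1; 814 and 732 CPM). Fto, a demethylase gene of 354.9 kb, held 33 summits, 5 of them with q at most 0.05, and Ythdf1 (224 and 228 CPM) held none.

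The highest folds lay apart from the most abundant RNAs. Of the 42 peaks of at least 10-fold, 28 lay in introns, 4 in internal exons, 2 in sole exons, 1 in a last exon, none in a first exon, and 7 outside genes. Ston1, which encodes an endocytic adaptor, held the highest, 64.9-fold over 1343 bases (−log10 p 205.3), with gene RNA at 53.0 and 58.5 CPM. Ust, a sulfotransferase gene, held 48.0-fold (147) at 22.1 and 20.5 CPM, and Acsf3, which encodes a mitochondrial acyl-CoA synthetase, 35.4-fold (108.3) at 15.8 and 17 CPM. Each of these is 1 intronic block of 1232 to 1343 bases. Aff3, a transcriptional elongation factor gene, held 32.4-fold (45.6 and 50 CPM) and Arnt, a dimerization partner of bHLH-PAS factors, 24.1-fold (128 and 143 CPM). Tmprss9, a serine protease gene, held 27.1-fold although its own exons gave only 0.471 and 0.441 CPM. Beyond genes and their 5 kb flanks, the strongest peak, on chromosome 12, was 871 bases wide and reached 27.1-fold. Counts in the table are over exons, so the level of the intronic RNA under these peaks was not measured here.

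**Figure D3:**
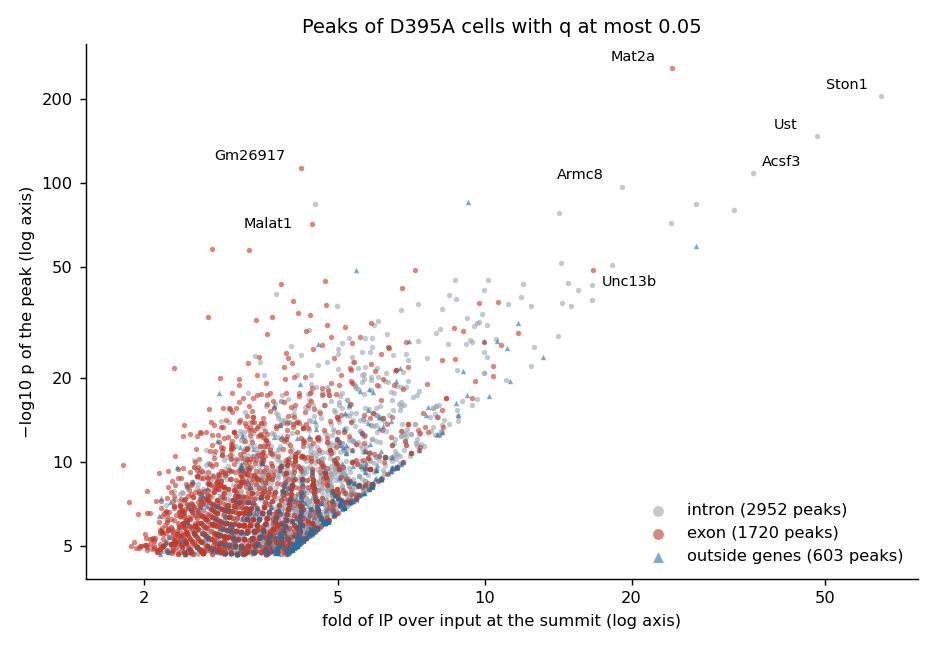
Fold of IP over input at the summit against −log10 p (both axes logarithmic) for the 5275 peaks with q at most 0.05, coloured by where the summit lies, with 8 named genes. Mat2a stands highest at 257.8, the intronic peaks of Ston1, Ust and Acsf3 lie farthest to the right at 35.4 to 64.9-fold, and exonic peaks of abundant RNAs such as Gm26917 (4.19-fold) reach a high −log10 p at a low fold.

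Among the 5275 peaks with q at most 0.05, fold and RNA level of the gene went in opposite directions. The 902 peaks below 3-fold lay in genes of a median 317 CPM and 61.0% were exonic. The 3641 peaks from 3-fold to below 5-fold lay in genes of a median 108 CPM and 28% were exonic. From 5-fold to below 10-fold (690 peaks) the median was 54.4 CPM and 20.6% were exonic, and at 10-fold or more it was 42.3 CPM and 16.7%. The read depth under each peak, which bears on the fold a given q needs, was not analysed here.

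Strong exonic peaks lay in several highly expressed housekeeping genes and in a few genes with less RNA. Unc13b, which encodes a vesicle-priming protein, had 16.7-fold (−log10 p 48.8) in an internal exon at 37.2 and 36.6 CPM. Eef1a1, the translation elongation factor gene, had 4.70-fold (44.6) at 4222 and 3377 CPM, and Hsp90ab1, a cytosolic HSP90 chaperone gene, had 4 exonic peaks, the best of 3.82-fold (43.6), at 2417 and 2165 CPM. Rrbp1, a ribosome-binding protein of the endoplasmic reticulum, had 9.71-fold (37.1) over 2359 bases. In last exons, Polr2a, the largest subunit of RNA polymerase II, followed Mat2a at 3.66-fold (33.3; 520 and 639 CPM), and the ribosomal protein gene Rpl41 at 4.74-fold (31.0). Copies of Hspd1-ps3, Gm10800, Erdr1 and Gm21887 exist elsewhere in the genome, and their peaks (4.03 to 11.7-fold in exons) are uncertain for that reason.

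Long genes and long RNAs held many summits. Kcnq1ot1, the imprinted antisense RNA of the Kcnq1 locus, held 29 exonic summits over 84.4 kb, 14 of them with q at most 0.05, at 519 and 469 CPM; its best summit (3.73-fold) also lies in Kcnq1. D10Wsu102e held 19 over 123.2 kb of exonic sequence. The cytoskeletal linker genes Dst and Macf1 held 18 and 15 in exons among 44 and 48 in the gene body, and the ubiquitin ligase gene Huwe1 11 of 28. Over the whole gene body, the proteoglycan gene Gpc6 held 74, the receptor gene Fgfr2 71, the exocyst gene Exoc4 67 and Auts2 65 summits, nearly all intronic. The count table gives Fgfr2 a span of 2960.9 kb, and its best summit also lies in another gene. Its summits may therefore belong to other genes within that span. Gm20388, whose span in the table is 4434.9 kb, held 97 without a single count, and its best summit is that of Acsf3.

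A gene was more likely to hold a summit the more RNA it had. Of 52459 gene models, 10335 (19.7%) held a summit in the gene body, 9.88% in an exon and 6.09% with q at most 0.05. Among the 15899 genes above 1 CPM these shares were 56.3%, 29.7% and 18.7%. By mean CPM, the share with a summit in the body was 1.07% of genes without counts, 4.09% up to 0.1 CPM, 11.8% from 0.1 to 1, 29.4% from 1 to 10, 66.4% from 10 to 100 and 83.9% (82.5 to 85.2%) above 100. With a summit in an exon it went from 0.290% to 58.5%, and with q at most 0.05 from 0.290% to 47.6%. Neighbouring levels differed beyond their counting intervals at each step for the gene body. Genes are not replicates, and abundant genes were also longer, with a median span of 0.924 kb without counts and 32.1 kb above 100 CPM.

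Per Mb, the rise was steeper in exons than in introns at the upper end. Exonic sequence held 1.28 summits per Mb in genes without counts, 35.0 at 1 to 10 CPM, 81.5 at 10 to 100 and 155 above 100. Intronic sequence held 0.846, 10.1, 45.6 and 60.6. Where genes overlap, a summit was counted here only in the gene of highest CPM, while the shared sequence was counted for every gene. This rule lowers the densities at low levels, and its part in the rise was not tested. At q at most 0.05 the exonic values were 12.9 per Mb at 10 to 100 CPM and 57.8 above 100, and the intronic ones 3.64 and 11.1. The median fold of exonic peaks went the other way, 2.64 at 10 to 100 CPM and 2.52 above 100.

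**Figure D4:**
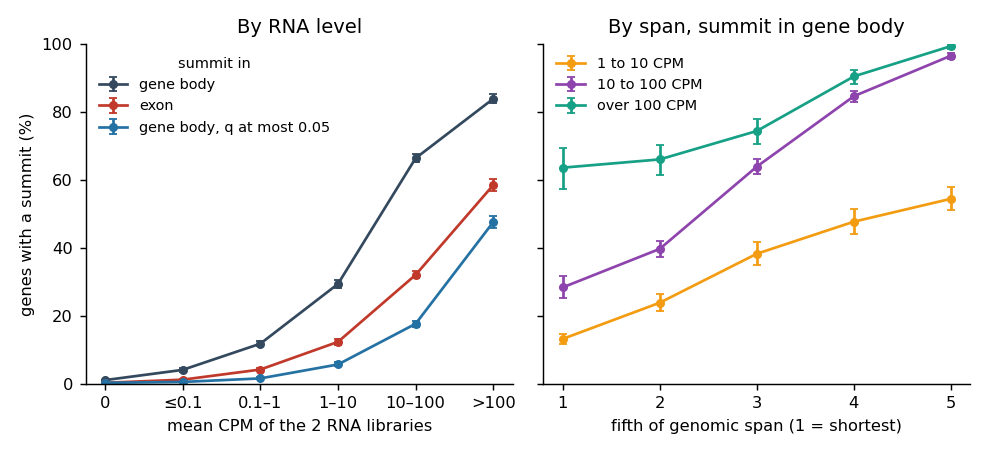
Left: percent of genes with a summit by mean CPM of the 2 D395A RNA libraries, for a summit in the gene body, in an exon, or in the body with q at most 0.05. Right: percent with a summit in the body by group of genomic span (5 groups), at 3 RNA levels; bars are 95% Wilson intervals in both panels. The left curves climb to 83.9%, 58.5% and 47.6% above 100 CPM, and the right curve for 10 to 100 CPM climbs from 28.4% to 96.6%.

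Length and level both counted. At 10 to 100 CPM, the share with a summit in the gene body was 44.3% (41.3 to 47.4%) in the shortest of 5 groups of exonic length (up to 1875 bases) and 87.8% (86.0 to 89.3%) in the longest (from 6868 bases). By 5 groups of genomic span the shares were 28.4% and 96.6%, and at 1 to 10 CPM they were 13.2% and 54.4%. Above 100 CPM they were 63.6% and 99.4%. Longer genes offer more sequence to a summit, and the density did not rise with length: at 10 to 100 CPM exonic summits stood at 201.5 per Mb in the group of shortest exonic length, 96.1 in the next and 73.1 in the longest. At q at most 0.05, 16.5% of the shortest and 27.1% of the longest group held a summit.

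Some abundant RNAs had no summit, and some gene models without counts had one. No summit was found in 458 genes above 100 CPM, and 7 of these still lay under part of a peak whose summit fell outside them. Highest by CPM of the 458 were the mitochondrial genes mt-Nd1 (2039 and 1767 CPM) and mt-Nd5 (1808 and 1724), both of them under wide peaks with the summit elsewhere, which covered 85.2% of mt-Nd1 and 97.8% of mt-Nd5. No peak overlapped the 8 that came next, led by the fatty acid synthase gene Fasn (1085 and 1134), the ATP synthase subunit gene Atp5b (937 and 860) and the ribosomal protein gene Rps4x (718 and 588). Rpl6, the asparagine synthetase gene Asns, the imprinted gene Peg10, Hist1h3e and the transcription factor gene Sp1 completed the 10 highest, between 452 and 713 CPM. Per exonic kilobase they spanned 62.1 CPM in Sp1 to 1988 in mt-Nd1. Their exonic lengths ran from 836 bases in Hist1h3e to 10947 in Fasn, so both long and short RNAs were among them. Of the 23131 gene models without a count in either library, 248 held a summit, and in 121 of these every summit also lay in another gene that had counts.

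Gene groups differed in how many members held a summit, and each is set beside the share of all genes at the same RNA levels. Here and above, the same levels are the groups of mean CPM already given, the highest being all genes above 100 CPM. Differences in RNA level within such a group were not matched. These levels are of total RNA, while the peaks are of chromatin RNA, and levels in chromatin RNA were not measured here. Of nuclear long non-coding RNAs above 1 CPM, 23 of 26 (88.5%) held a summit, beside 56.2% at the same levels, and 46.2% beside 20% one with q at most 0.05. Their median span, 26.7 kb, is not that of those other genes, and length was not matched here. Malat1, a nuclear speckle RNA, had 1 peak of 6576 bases over its 6983-base gene (4.41-fold, −log10 p 71.2; 1916 and 1797 CPM), with 12.6% of its bases also under an opposite-strand model. Neat1, the scaffold of paraspeckles, had 5 summits, the best of 6.37-fold (25.6; 244 and 232 CPM). Xist, the RNA of X inactivation, had 2 summits at only 7.53 and 6.56 CPM, but its best (2.70-fold, 8.45) lies in the opposite-strand Tsix as well. Meg3 and Rian, imprinted RNAs of the Dlk1 region, held 4 and 6 summits, with best values of 3.87-fold (9.04) and 3.34-fold (8.71).

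Genes of splicing factors held summits in 19 of 20 cases (95%, beside 82.1% at the same levels), 15 of them with q at most 0.05 (75% beside 44.6%). Hnrnpu, a chromatin-associated RNA-binding protein, held 10, the best in the first exon (3.13-fold, −log10 p 20; 864 and 842 CPM). Son, a speckle protein, had an intronic peak of 7.95-fold (29.0; 557 and 592 CPM), and Srsf5 5 exonic peaks, the best of 4.37-fold (17.7; 177 and 162 CPM). Of ribosomal protein genes, 71 of 87 (81.6%) held a summit, near the 80.8% of genes at the same levels, but 70.1% beside 44.1% held one with q at most 0.05. Rpl26 led with an intronic peak of 6.03-fold (32.0; 378 and 313 CPM), and Rplp0 had 5.61-fold (24.9), also intronic. These genes have processed pseudogenes, and some of their introns hold snoRNAs, so the place of such reads is uncertain.

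Replication-dependent histone genes, whose RNAs have no poly(A) tail, held a summit less often than genes at their levels did, a difference that was not tested. A summit lay in 22 of 68 (32.4%) beside 71.0%, and 30.9% beside 31.7% held one with q at most 0.05, so that most histone summits were past the threshold. Their genes are short, with a median span of 0.529 kb. Hist1h2ab had 9.0-fold (−log10 p 29.6) at 160 and 109 CPM, Hist1h2af 8.62-fold (30.3) at 91.9 and 64.1 CPM and Hist1h2ak 5.34-fold (26.8) at 253 and 196 CPM. The copies are near-identical and partly overlap other models, and reads may be split between them. Immediate early genes held a summit in 4 of 15 cases (26.7% beside 47.8%), none with q at most 0.05 (beside 13.3% of genes at the same levels). For a summit in an exon the share was 26.7% beside 23.3%. These genes are short too, with a median span of 3.28 kb, and length was not matched here. Egr1, below 1 CPM at 0.785 and 0.331, had a first-exon peak with q at most 0.05 (4.43-fold, −log10 p 8.62).

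Of 24 pluripotency factors, 18 held a summit (75% beside 74.2%) and 11 one with q at most 0.05 (45.8% beside 35.4%). Tet1, the 5-methylcytosine oxidase, led with 8 summits and an internal-exon peak of 5.17-fold (−log10 p 30.4; 812 and 960 CPM). Klf2 had 3.47-fold (8.66; 524 and 474 CPM), Sox2 2.59-fold (4.88; 288 and 251 CPM) and Esrrb 10 summits with a best of 3.07-fold (7.6; 542 and 576 CPM). The Sox2 peak began upstream of that gene, and its summit also lies in another gene. Nanog had no summit at 429 and 418 CPM, nor had Dppa3, Lin28a, Lefty1, Nr0b1 and Myc. Of the 21 genes that write, read or remove H3K9 methylation, the mark studied in this series, 18 held a summit (85.7% beside 78.1%) and 9 one with q at most 0.05 (42.9% beside 37.6%). Ehmt1, an H3K9 methyltransferase gene, had an intronic peak of 4.79-fold (17.4; 177 and 198 CPM), and the demethylase gene Kdm3b an internal-exon peak of 4.99-fold (12.8; 285 and 302 CPM) in a gene with 24.6% opposite-strand overlap. Zinc finger genes held a summit in 275 of 406 cases (67.7% beside 59.9%), and in 78 of the 406 one with q at most 0.05 (19.2% beside 18.3%). Imprinted genes held a summit in 12 of 24 cases (50% beside 63.8%). For a summit in an exon their share was 37.5% beside 35.7%, and with q at most 0.05 it was 29.2% beside 23.9%.

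**Figure D5:**
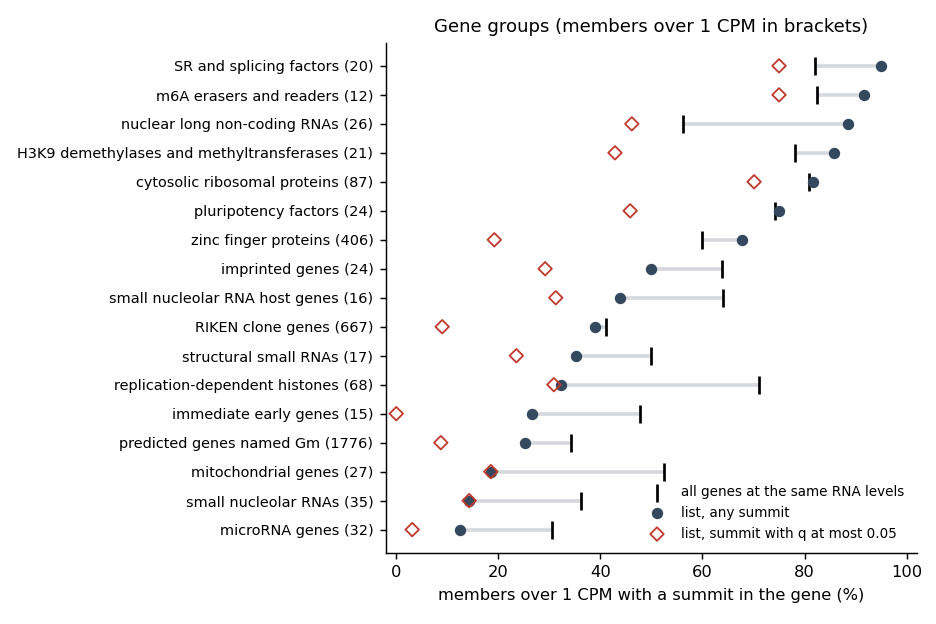
Percent of members above 1 CPM with a summit in the gene (circles) and with one of q at most 0.05 (diamonds), for groups with at least 12 such members; ticks mark the share with any summit over all genes at the same RNA levels. Splicing factors (95%) and nuclear long non-coding RNAs (88.5%) stand to the right of their ticks, and histone genes (32.4%) and small RNA groups to the left.

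By gene type, 62.7% of the 13023 protein-coding genes above 1 CPM held a summit, beside 61.0% at the same levels, and 35.7% of 649 long non-coding genes, beside 35.5%. Pseudogenes (496) were at 29.6% beside 37.9% for the gene body and at 25.6% beside 17.3% for exons. Their median span was 0.91 kb and their median exonic length 0.88 kb, so most of their sequence is exonic, and gene structure was not matched here. Types came from RefSeq for 35862 of the 52459 models.

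Small and structural RNAs formed few peaks, but many of those were past the q threshold. Over genes of such RNAs in RefSeq lay 175 peaks, 83 of them (47.4%) with q at most 0.05 against 13.6% of all peaks. They touched 90 of 1340 snoRNA genes (6.72%), 30 of 1004 snRNA genes (2.99%) and 31 of 1228 miRNA genes (2.52%). Of all gene models in the count table, 19.7% held a summit in the gene body, which is a different measure from overlap with any part of a peak. Of 3322 gene models of these types in the count table, 137 were above 1 CPM, and of those 19.7% held a summit beside 37.2% at the same RNA levels, and 13.9% beside 8.92% one with q at most 0.05. Several RNA polymerase III RNAs had such peaks: Rpph1, the RNA of RNase P, had 5.54-fold (−log10 p 28.1; 547 and 380 CPM), Rn7sk, the regulator of P-TEFb, 3.02-fold (15.2; 647 and 391 CPM) and Rmrp 2.42-fold (13.6; 536 and 340 CPM). Rnu2-10, a U2 spliceosomal RNA gene, had 6.95-fold (13.7) at 5.65 and 2.20 CPM, and the Cajal body RNA Scarna13 4.55-fold (12.3). Opposite-strand models cover 45.8% of the exonic bases of Rmrp, and the summits of Rmrp and Scarna13 each also lie in another gene. Within a host gene, Snora75 lies under a peak of the nucleolin gene Ncl (3.32-fold, 15.3). Such RNAs are often as short as the peaks, so host and small RNA cannot be told apart here.

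Mitochondrial ribosomal RNA genes, and models in a region that holds a copy of the rRNA precursor, also held peaks. The RNA-seq libraries were depleted of rRNA, so their counts there do not give its level. Gm26917, a model in a region of chromosome 17 that holds a copy of the rRNA precursor, had a peak of 3534 bases (4.19-fold, −log10 p 113.6). Its RNA stood at 21187 and 15539 CPM, and Gm26917 is also counted among the nuclear long non-coding RNAs above. Gm42418, next to it, had 2.75-fold (57.9) at 848 and 601 CPM, but 99.5% of its exonic bases are also covered by an opposite-strand model. On the mitochondrial genome 5 peaks were listed. The first ran over 3565 bases across mt-Rnr1 and mt-Rnr2, the mitochondrial rRNAs (3.28-fold, 57.7), with mt-Rnr2 at only 5.57 and 3.47 CPM. The next covered mt-Co1 (2.70-fold, 33.1; 4168 and 3603 CPM), and another mt-Cytb (2.3-fold, 21.8; 1865 and 1692 CPM). The peaks given here with their values had folds between 2.3 and 4.19, with a −log10 p of at least 21.8. The mitochondrial peak on mt-Nd4 was weaker (1.81-fold, 9.8).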

How the data were processed

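The deposited D395A peak list follows the narrowPeak layout of MACS2. As deposited, each peak has a fold (ratio of IP over input), a −log10 p, a −log10 q, a summit and a score of 10 times the −log10 p. No listed peak has a p above 0.05, while many have a higher q. The caller's settings are not stated in the labels. The count table holds raw read counts per gene over exons, as deposited. The submitters' processing notes name HISAT2 2.1.0, featureCounts 1.6.3 and MACS2 2.1.1 among other tools, and mm10. A count column whose name differs in 1 character from D395A was taken as replicate 1. WT and HEK293T data were not used here.

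Summits were placed in exons merged over transcripts, then introns, then flanks of 5 kb. Where genes overlap, the gene of highest CPM was used for position, and every gene was credited with the summit. CPM used library totals. With 1 group there was no test between groups and no count model. The shares have Wilson intervals at 95%. Sequences and types came from RefSeq tables of GRCm38.p6. Members and lists were chosen with earlier results of these data known. Genes were named by rule: methyltransferase lists, the 12 with most exonic summits and the 12 with the strongest, 8 per position, 4 per list, the 10 most abundant without a summit and 8 peaks without counts. Other genes named, such as list members, genes of at least 10-fold peaks and starts, were chosen after their values were seen. Summit placement was tested on simulated data. Tables were handled in pandas 2.3.3 and numpy 2.4.6, intervals came from scipy 1.17.1, figures were drawn with matplotlib 3.10.9, and all ran under Python 3.11.15. Some genes and sequences that meet these rules are not reported here.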

Additional observations from a re-analysis of the deposited data

How the results depend on the processing

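With peaks of q at most 0.05 and with the top 25% by −log10 p, respectively, the number of peaks was 5275 and 9713, exons held 32.6% and 26.9% of summits, introns 56.0% and 59.5%, flanks 3.87% and 4.62%, and the first-exon density was 11.6 and 8.27 times the intronic one. The share with a summit was then 6.09% and 9.40% of gene models, 47.6% and 60.8% of genes above 100 CPM, and at 10 to 100 CPM 27.1% and 46.7% of the longest and 16.5% and 22.9% of the shortest length group. Placing peaks by 1 bp of overlap and by 50% of their width gave 29.2% and 14.2% in exons, 56.6% and 71.2% in introns and density ratios of 6.25 and 3.41. A flank of 1 kb held 1.55%. With the summit required in an exon, 9.88%, 58.5%, 50.9% and 23.5% of gene models, genes above 100 CPM, the longest and the shortest length group held one, and with summits in 1 gene only these were 16.6%, 79.8%, 83.4% and 37.7%. Without genes that overlap on the opposite strand 16.4% of gene models held a summit, and of those with at least 10 counts 48.3%. Per exonic kilobase the density ratio was 4.23, and 72.6% of genes above 100, 92.1% of the longest and 32.1% of the shortest length group held one. By genomic span the longest and shortest groups were at 96.6% and 28.4%. Without the commonest pair of fold and p, chosen after seeing the data, exons held 18.8% and introns 68.2%. Leaving out replicate 1 or 2 gave density ratios of 3.78 to 3.81, 83.8% to 84.0% above 100 CPM, 87.8% to 88.1% in the longest and 43.6% to 45.6% in the shortest length group. In each setting run for them, first exons were denser than introns and the longest group was above the shortest. Why the values moved was not tested. No paired analysis was possible because there was 1 group of RNA libraries, 1 IP and 1 input. The depth of the IP and input libraries is not known here, so absence of a peak may be lack of depth. Motifs at summits were not searched, as sequence was used only from the table of annotated starts.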

Other observations

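Some signal lay just outside annotated genes. The seventh strongest peak by p of the list stood within 5 kb of Sod2, the mitochondrial superoxide dismutase gene on chromosome 17 (9.22-fold, −log10 p 85.4, RNA at 98.7 and 100.0 CPM), and N4bp1 had one in its flank of 5.43-fold (49.0; 309 and 345 CPM). Both lie beyond the 3′ end of the gene in the count table, as the run of the Mat2a peak past its gene end does. On chromosome Y, Erdr1 held 19 summits in its body, 17 of them with q at most 0.05, the best of 4.49-fold over 2816 bases (−log10 p 83.8; 105 and 111 CPM), and 1 of 11.1-fold in its flank. Erdr1 has copies on both sex chromosomes, so the source of these reads is uncertain.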
